A study of Mus musculus with 6 samples.

Results

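The cyclins, cyclin-dependent kinases (Cdks), Cdk inhibitors, E2F factors and retinoblastoma (Rb) family genes were followed in RAW 264.7 cells, a mouse macrophage line established from a tumour that Abelson leukaemia virus had induced. One group of cells was cultured for 48 h with lipopolysaccharide (LPS, 100 ng/ml) and LPS-binding protein (100 pM), the other for 48 h with neither. Total RNA of both was labelled with Cy5 or Cy3 and hybridised together on 6 two-colour arrays, 3 with the treated RNA in Cy5 and 3 with it in Cy3. Arrays with treated RNA in Cy5 are called forward here and those with it in Cy3 dye-swapped, and the labels number both from set 1 to set 3. The line is transformed and clonal, which limits it as a model of a resting macrophage.

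The members were all probes whose platform symbol starts with Ccn and a lower-case letter, is Cdk followed by digits, starts with Cdkn or with E2f and a digit, or is Rb1, Rbl1 or Rbl2. These were 88 of 16281 probes, for 49 genes. Symbols were those of the platform annotation, and probes of 1 gene are told apart here by their platform number. A value of exactly 0, which a measured ratio hardly ever gives, was taken as missing. This left 72 member probes of 47 genes with a value on all 6 arrays, among 12724 probes in all. Of the other 16 member probes, 5 were listed at 0 on all 6 arrays and 11 on 1 to 5 arrays. Cdk3 and E2f3 had no probe with 6 values.

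Cyclins are the regulatory subunits that switch on Cdks, and successive cyclin-Cdk pairs drive cells through G1, S phase and mitosis. D-type cyclins with Cdk4 or Cdk6, and then cyclin E with Cdk2, phosphorylate the Rb family, which frees E2F factors to transcribe the genes of DNA synthesis. The Cip/Kip and Ink4 proteins hold Cdks inactive. In macrophages, LPS is known to arrest proliferation while it activates inflammatory genes.

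Each value is a log2 ratio, treated over untreated, given per array or as the mean ± SD of 3 set means, in each of which both orientations were averaged. Neither the base of the logarithm nor the direction of the ratio is given in the sources used here. The base was taken as 2 and the direction as Cy5 over Cy3, the RNA that the labels call test over the one they call control. With natural logarithms every fold change would be larger, and with the other direction every sign would turn. Adjusted p-values are from limma (two-sided, Benjamini-Hochberg over 12724 probes), and a probe changed where this was under 0.05. Whether the sets came from separate cultures is not in the labels, so the tests weigh only how these sets scatter, and that scatter may be technical. An array holds a ratio and no level, so neither the macrophage identity of the cells nor the order of abundance of the cyclins could be read. Turned to one direction, arrays of one orientation correlated at 0.741 to 0.812 and arrays of opposite orientation at 0.56 to 0.781 over the 12724 probes. Of 8 tested macrophage marker probes, 2 were called higher (Adgre1, 0.94 ± 0.09, and 1 of 3 for Ptprc) and 1 lower (Csf1r, -0.53 ± 0.22). Of 4 fibroblast, 3 T cell and 3 B cell marker probes, Dcn (2.68 ± 0.95) and Cd79a (0.63 ± 0.11) were called higher and the others were not called. Their part in the results was not tested.

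Of the 72 member probes, 11 were higher and 15 lower in treated cells, for 7 and 10 genes. Over all probes, 14.8% were called higher and 12.2% lower, 27.1% together, beside 15.3% and 20.8% of the members. The sign was the same on all 6 arrays for 17 member probes above 0 (23.6%, beside 16.1% of all probes) and 14 below 0 (19.4%, beside 14.1%). The median member ratio was 0.00, beside -0.01 over all probes. The mitotic group of Ccnb2, Ccnf and Cdk1 fell at every tested probe, as did the S phase cyclin Ccna2 and the phosphatase gene Cdkn3. The cyclins Ccng1 and Ccng2, the D-type cyclins Ccnd2 and Ccnd3, and 1 of 2 tested probes of the inhibitor Cdkn1a rose. With limma, 0 of 15 probes of transcriptional and Cdk-activating genes passed (1 at an unadjusted p under 0.05) and 0 of 7 Ink4 probes (0 unadjusted). Members listed at 0 on some arrays could not enter these counts. The roles were drawn with earlier results of these data known, so agreement within a role is not a test.

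**Figure D1:**
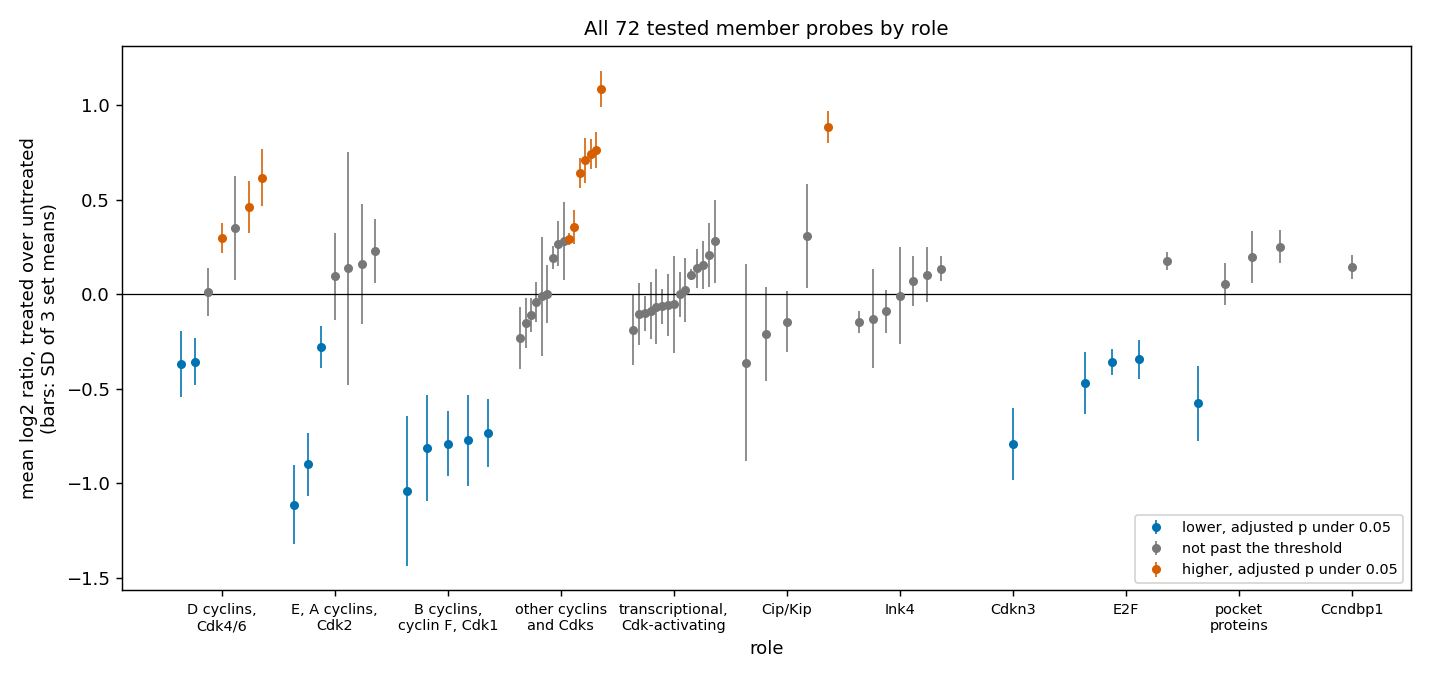
Mean log2 ratio of treated over untreated cells (vertical axis) for the 72 tested member probes, grouped by role (horizontal axis), with bars for the SD of 3 set means and colour for the limma call. All 5 probes of B-type cyclins, cyclin F and Cdk1 lie between -1.04 and -0.73, whereas the 15 transcriptional and Cdk-activating probes lie between -0.19 and 0.28.

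Ccna2 encodes cyclin A2, which partners Cdk2 in S phase and Cdk1 on the way into mitosis. Its probe 17251 read -1.25, -1.25 and -0.84 on the forward arrays (sets 1, 2 and 3) and -1.18, -1.25 and -0.91 on the dye-swapped arrays. All 6 arrays were low, and the orientations overlapped throughout. The mean was -1.11 ± 0.21, a level 2.16-fold lower in treated cells (adjusted p = 0.00012), the lowest of the 72 tested member probes. Probe 10715 gave -0.90 ± 0.17 (adjusted p = 0.000275). The other A-type cyclin, Ccna1, which is best known from the germ line, stood at 0.23 ± 0.17 without passing (adjusted p = 0.119). It averaged -0.06 on the forward arrays and 0.52 on the dye-swapped arrays.

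Among the genes of mitotic entry, cyclin B2 (Ccnb2) read -1.43, -1.03 and -0.77 on the forward arrays and -1.51, -0.88 and -0.61 on the dye-swapped arrays. The ratios of a set were alike in both orientations, with set 1 lowest and set 3 nearest to 0. The mean was -1.04 ± 0.40, 2.05-fold lower (adjusted p = 0.000976). Its second probe was listed at 0 on all 6 arrays. Cdk1, the kinase that cyclin B activates, had values of -1.03, -0.87 and -0.77 on the forward arrays and -0.81, -0.83 and -0.42 on the dye-swapped arrays at probe 12673. The 2 probes of Cdk1 averaged -0.79 ± 0.17 (adjusted p = 0.000582) and -0.77 ± 0.24 (adjusted p = 0.00118), a gap of 0.02. Cyclin F (Ccnf), the substrate receptor of a ubiquitin ligase that degrades proteins of the cycle, fell at both probes. Probe 12541 gave -0.73 ± 0.18 with all arrays between -0.90 and -0.35 (adjusted p = 0.00094). Probe 16990 gave -0.81 ± 0.28 (adjusted p = 0.00126) but read -0.94, -1.89 and -0.77 on the forward arrays and -0.21, -0.36 and -0.72 on the dye-swapped arrays, so that every forward array was lower than every dye-swapped array.

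Cdkn3 carries an inhibitor's name because its product, a phosphatase, removes the activating phosphate from Cdks, and its mRNA is a proliferation marker. It read -0.996, -0.82 and -0.81 on the forward arrays and -1.01, -0.69 and -0.43 on the dye-swapped arrays, all below 0. The mean was -0.79 ± 0.19, 1.73-fold lower (adjusted p = 0.000663). Its sign was that of Ccnb2 and Cdk1 and not that of the inhibitor Cdkn1a.

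**Figure D2:**
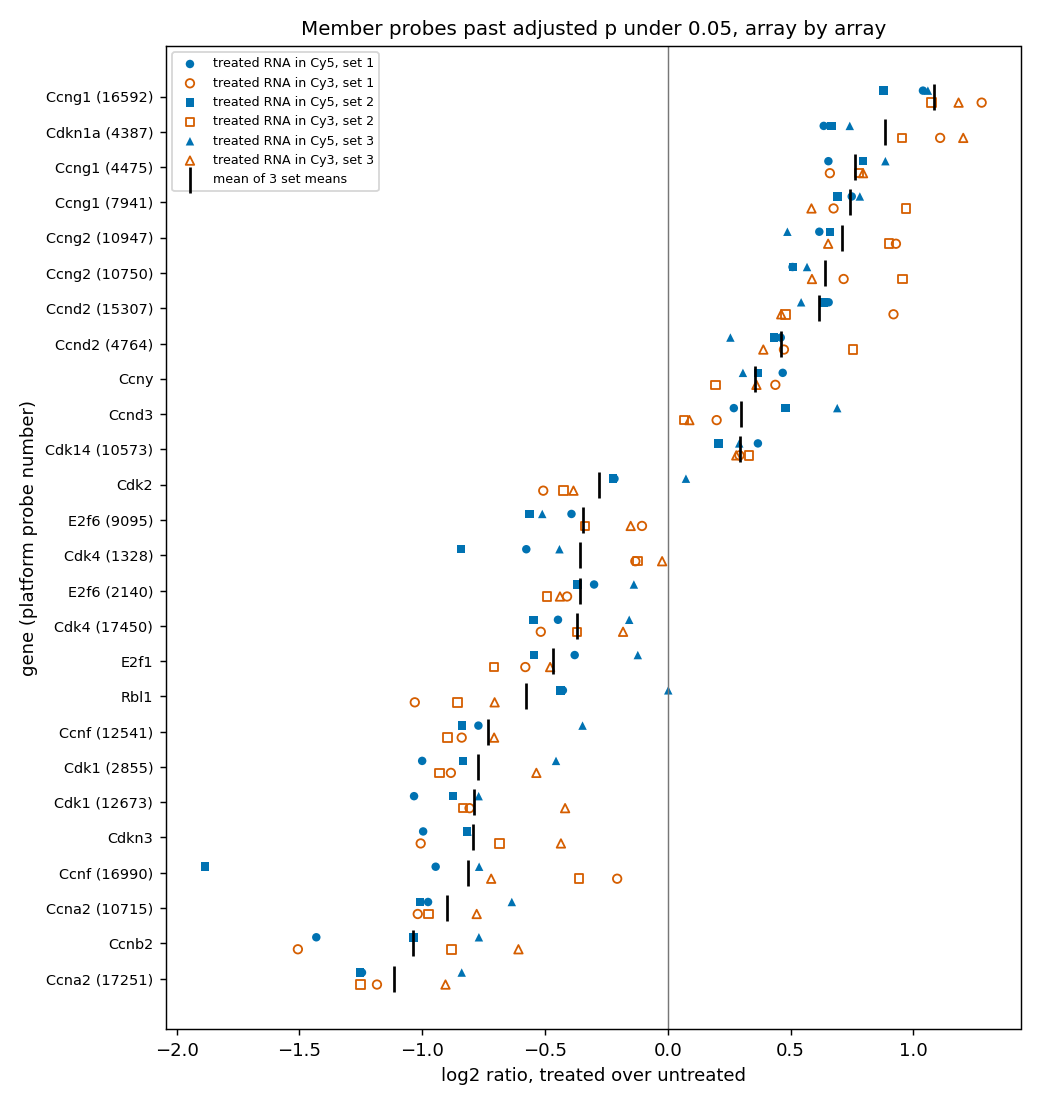
Log2 ratio on each of the 6 arrays (horizontal axis) for the 26 member probes past adjusted p under 0.05 (vertical axis, ordered by mean), filled blue for forward and open orange for dye-swapped arrays, one symbol shape per set and a black bar for the mean. The 2 Ccna2 probes, Ccnb2 and Cdkn3 lie below 0 and the 3 Ccng1 probes above 0 on every array, while Cdk2 and Rbl1 reach or pass 0 on the forward array of set 3.

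Promoters are described because mitotic genes are known for a CHR element beside CCAAT boxes. The DREAM complex of E2F, pocket and MuvB proteins binds the CHR element. Windows of 250 bases before to 50 after the start were taken from the RefSeq table of build GRCm38.p6. Those of another length, and those on a chromosome left out of the search, were not used. Of 49 member genes, 38 had a window, with 44 windows in all. A gene was counted where any of its windows held the letters, whereas the shares over all windows are per window. The called genes Ccna2 (lower), Ccnd2 and Ccny (higher) had none. The CHR-type letters TTTGAA, on either strand, occurred in the windows of 4 of 9 genes called lower (Ccnb2, Ccnf, Cdk1 and Cdkn3), of 0 of 5 called higher (Ccnd3, Ccng1, Ccng2, Cdk14 and Cdkn1a) and of 4 of 23 tested but not called. They occurred in 17.9% of all 32851 windows. CCAAT, on either strand, was in 5 of 9 lower, 2 of 5 higher and 12 of 23 uncalled genes, and in 37.4% of all windows. E2F-type letters, TTCCCGC or TTGGCGC on either strand, were in 2 of 9 lower genes (Cdk1 and Cdk2), 0 of 5 higher and 4 of 23 uncalled genes, and in 6.81% of all windows. Only these exact strings were searched, so E2F-type sites spelled otherwise were not counted. A window follows an annotated start, which may lie inside a gene, as that of E2f1 seems to. Letters absent from a window may therefore stand in the main promoter. E2f3, which was not tested, held all of these letters and is in none of the counts of genes. TTGGCGC can share bases with a reversed CCAAT. These are matches of letters, and no binding was measured. The 170 bases before the start are given 5′ to 3′ for the 4 lower genes with TTTGAA and, for contrast, for Ccng1, whose window holds CCAAT but no TTTGAA. The lower genes without TTTGAA (Cdk2, Cdk4, E2f1, E2f6 and Rbl1) are not printed. Capitals mark TTTGAA and CCAAT on either strand. Neither TTCCCGC nor TTGGCGC falls in the printed stretches, and the TTGGCGC of Cdk1 lies before its stretch.
Ccnb2 (chr9:70421555-70421724, minus strand): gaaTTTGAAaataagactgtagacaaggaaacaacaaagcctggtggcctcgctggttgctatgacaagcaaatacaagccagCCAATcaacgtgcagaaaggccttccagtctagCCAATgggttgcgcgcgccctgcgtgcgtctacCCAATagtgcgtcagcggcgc
Ccnf (chr17:24251410-24251579, minus strand): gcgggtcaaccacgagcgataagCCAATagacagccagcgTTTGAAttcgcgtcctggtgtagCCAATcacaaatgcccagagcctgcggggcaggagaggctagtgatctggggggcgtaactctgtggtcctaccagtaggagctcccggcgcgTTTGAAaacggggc
Cdk1 (chr10:69352913-69353082, minus strand): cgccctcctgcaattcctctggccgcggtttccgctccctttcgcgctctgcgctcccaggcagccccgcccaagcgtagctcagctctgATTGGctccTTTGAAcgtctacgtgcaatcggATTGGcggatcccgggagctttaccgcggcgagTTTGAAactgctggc
Cdkn3 (chr14:46760371-46760540, plus strand): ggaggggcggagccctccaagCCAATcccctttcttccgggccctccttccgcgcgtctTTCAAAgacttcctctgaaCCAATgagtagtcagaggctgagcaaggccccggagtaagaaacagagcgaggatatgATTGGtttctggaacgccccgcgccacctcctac
Ccng1 (chr11:40755287-40755456, minus strand): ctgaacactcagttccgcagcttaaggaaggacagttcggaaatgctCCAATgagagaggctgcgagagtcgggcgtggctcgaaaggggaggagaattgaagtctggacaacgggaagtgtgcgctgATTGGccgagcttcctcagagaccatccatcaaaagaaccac
In the full windows, TTTGAA occurred 2 times each in Ccnb2, Ccnf and Cdk1 and 1 time in Cdkn3. The second match in Ccnb2 lies after the start and outside the printed stretch. The letters CCAAT occurred 3 times in Ccnb2, 2 in Ccnf, 3 in Cdk1, 4 in Cdkn3 and 4 in Ccng1. Of these genes Ccng1 was called higher and the other 4 lower.

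In the G1 group, Ccnd2 and Ccnd3 rose and Cdk4 fell. Cyclin D2 (Ccnd2), which growth signals induce, read 0.66, 0.64 and 0.54 on the forward arrays and 0.92, 0.48 and 0.46 on the dye-swapped arrays at probe 15307. All 6 values were above 0, and the mean was 0.62 ± 0.15, 1.53-fold (adjusted p = 0.00187). Probe 4764 gave 0.46 ± 0.14 (adjusted p = 0.00713), a call lost without set 2. Cyclin D3 (Ccnd3) read 0.27, 0.48 and 0.69 on the forward arrays but 0.20, 0.07 and 0.09 on the dye-swapped arrays, higher on the forward arrays than on the dye-swapped arrays in every set. Its mean of 0.30 ± 0.08 passed (adjusted p = 0.0347). The call was lost without set 1, without set 2 and without set 3, and with the probes averaged per gene, where the mean was 0.09. That average takes in the second Ccnd3 probe, whose only value was -2.02, on the forward array of set 2. Cyclin D1 (Ccnd1) was just outside the threshold, at 0.35 ± 0.28 (adjusted p = 0.0519), with values of 0.50, 0.04 and 0.32 on the forward arrays and 0.72, 0.08 and 0.45 on the dye-swapped arrays. Set 2 was near 0 in both orientations and the other sets were above it. Without set 2 it passed, at 0.50 (adjusted p = 0.0325). It also passed over 6 arrays with the set as a random replicate block (adjusted p = 0.0388) and with no replicate block (adjusted p = 0.0231). The fit with no replicate block counts the arrays of a set as separate replicates. With the probes averaged per gene Ccnd1 did not pass, at 0.13 (adjusted p = 0.413). The nearest member inside the threshold was Cdk2 (adjusted p = 0.0486).

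Cdk4, the kinase of the D-type cyclins, fell at both probes. Probe 17450 read -0.45, -0.55 and -0.16 on the forward arrays and -0.52, -0.37 and -0.18 on the dye-swapped arrays, with overlapping orientations. Its mean was -0.37 ± 0.17, 1.29-fold lower (adjusted p = 0.0234). Probe 1328 gave the close mean of -0.36 ± 0.13 (adjusted p = 0.0206) from separate ranges, -0.84 to -0.44 on the forward arrays and -0.13 to -0.02 on the dye-swapped arrays. Both Cdk4 calls were lost without set 1 and without set 2. Cdk6, the alternative partner, stood at 0.01 ± 0.13 at its tested probe (adjusted p = 0.945).

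Cyclin E1 (Ccne1), the partner of Cdk2 in late G1, had means of 0.16 ± 0.32 and 0.09 ± 0.23 at its 2 probes, neither passing (adjusted p = 0.381 and 0.563). At probe 13774 the arrays ran from -1.34 to 0.99. Cyclin E2 (Ccne2) spread from -0.98 to 0.88 around 0.14 ± 0.62 (adjusted p = 0.649). Cdk2 read -0.22, -0.22 and 0.07 on the forward arrays and -0.51, -0.42 and -0.38 on the dye-swapped arrays, for a mean of -0.28 ± 0.11. Its call was lost under 7 of 12 alternatives, among them each set left out and both rescalings of the arrays.

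**Figure D3:**
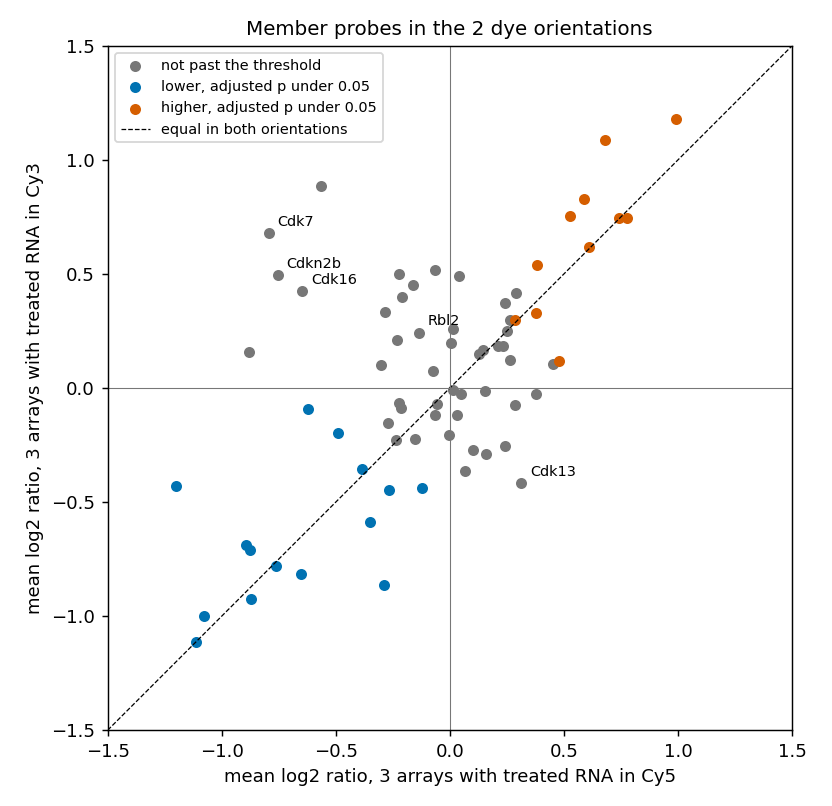
Mean log2 ratio of each tested member probe over the 3 forward arrays (horizontal axis) against the 3 dye-swapped arrays (vertical axis), coloured by call, with a dashed line of equality. Called probes lie in the quadrants of 1 sign, and the 5 labelled probes (Cdk7, Cdkn2b, Cdk16, Rbl2 and Cdk13) had opposite signs in the orientations on all arrays.

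The G-type cyclins rose at all 5 probes. Ccng1 encodes cyclin G1, a p53 target. Its probe 16592 read 1.04, 0.88 and 1.06 on the forward arrays and 1.28, 1.07 and 1.18 on the dye-swapped arrays. All 6 arrays were high, and the mean of 1.09 ± 0.10, 2.12-fold, was the highest of the 72 (adjusted p = 5.6e-05). Its probes 4475 and 7941 gave 0.76 ± 0.09 (adjusted p = 0.000426) and 0.74 ± 0.08 (adjusted p = 0.000445). Cyclin G2 (Ccng2), which accumulates in cells that stop dividing, read 0.62, 0.66 and 0.49 on the forward arrays and 0.93, 0.90 and 0.65 on the dye-swapped arrays at probe 10947. The ranges of the orientations overlapped narrowly, and the mean was 0.71 ± 0.12, 1.63-fold (adjusted p = 0.000712). Probe 10750 gave 0.64 ± 0.08 (adjusted p = 0.000986).

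Smaller increases came from cyclin Y (Ccny), a membrane-bound cyclin, and from Cdk14, the kinase it activates. Ccny read 0.47, 0.37 and 0.31 on the forward arrays and 0.44, 0.20 and 0.36 on the dye-swapped arrays, with a mean of 0.36 ± 0.09 (adjusted p = 0.0176). Cdk14 read 0.37, 0.21 and 0.29 on the forward arrays and 0.29, 0.33 and 0.28 on the dye-swapped arrays at probe 10573, with a mean of 0.29 ± 0.03 (adjusted p = 0.0326). Both genes were above 0 on all 6 arrays at these probes, with overlapping orientations. The second Cdk14 probe had a like mean, 0.27 ± 0.12, that did not pass (adjusted p = 0.0593, or 0.0491 with the set as a random replicate block over 6 arrays), with 0.04 on the forward arrays and 0.49 on the dye-swapped arrays. The Ccny call was lost without set 1 and without set 2, and the Cdk14 call without each of the sets. Of the other 9 probes of these other cyclins and Cdks, which include both for Ccni, 3 for Cdk16 and 1 each for Cdk5, Cdk18 and Cdk20, 0 passed, and their means ran from -0.23 (Cdk18) to 0.28 (Cdk20). The uncalled Cdk14 probe is among them. The Ccni probes stood at 0.00 ± 0.15 and -0.04 ± 0.11.

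Among Cdk inhibitors, the Cip/Kip gene Cdkn1a, which encodes p21, the p53-induced inhibitor of Cdk2, had 3 probes. Probe 4387 read 0.64, 0.67 and 0.74 on the forward arrays and 1.11, 0.95 and 1.20 on the dye-swapped arrays, high on all arrays and higher on the dye-swapped arrays. The mean was 0.88 ± 0.08, 1.85-fold (adjusted p = 0.000171). Probe 10268 read 0.95 and 1.03 on the forward arrays and 0.69 and 0.74 on the dye-swapped arrays for sets 1 and 2, and was listed at 0 in both arrays of set 3. Where at least 2 arrays of each orientation sufficed, with no replicate block, probe 10268 passed at 0.85 (limma, adjusted p = 0.000477). Probe 3548 gave 0.31 ± 0.28 and did not pass (adjusted p = 0.0811). Over 6 arrays it passed with no replicate block (adjusted p = 0.0442) and not with the set as a random replicate block (adjusted p = 0.0762). The probes averaged per gene passed at 0.68 (adjusted p = 0.00129). On probe 3548 set 3 was high, at 0.63 and 0.62, and sets 1 and 2 lay between -0.01 and 0.34. The tested probes of Cdkn1a therefore differ by 0.58 in their means, the widest gap among the 23 member genes with several tested probes.

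Cdkn1b, which encodes p27, had means of -0.36 ± 0.52 and -0.21 ± 0.25 that did not pass (adjusted p = 0.156 and 0.194). Its probe 12216 read -0.14, -1.38 and -1.11 on the forward arrays and 0.62, -0.01 and -0.14 on the dye-swapped arrays, and passed at -0.66 without set 1 (adjusted p = 0.0011). Cdkn1c, the p57 gene, stood at -0.14 ± 0.16 (adjusted p = 0.305). The Ink4 genes, whose products bind Cdk4 and Cdk6, gave 7 means between -0.15 (Cdkn2c) and 0.14 (Cdkn2d). Cdkn2a, the gene of p16 and p19Arf, read -0.20, 0.41 and 0.51 on the forward arrays and -0.24, 0.13 and -0.66 on the dye-swapped arrays, for a mean of -0.01 ± 0.26 (adjusted p = 0.976). Cdkn2b probe 10623 read -0.45, -0.93 and -0.89 on the forward arrays and 0.69, 0.13 and 0.66 on the dye-swapped arrays, so its sign differed with the orientation, and probe 3354 gave 0.10 ± 0.15.

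Of the E2F factors, E2f1 and E2f6 fell. E2f1, an activator of S phase genes and itself an E2F target, read -0.38, -0.55 and -0.12 on the forward arrays and -0.58, -0.71 and -0.48 on the dye-swapped arrays. Every array was below 0, and the mean was -0.47 ± 0.16, 1.38-fold lower (adjusted p = 0.00777). This call was lost without set 2. E2f6, a repressor that lacks the Rb-binding domain, gave -0.36 ± 0.07 and -0.34 ± 0.10 at its 2 probes (adjusted p = 0.0162 and 0.0215), with all 12 array values between -0.56 and -0.10. Both E2f6 calls were lost without set 2, one also without set 1 and the other without set 3. E2f5, a repressor that works with pocket proteins, was at 0.18 ± 0.05 without passing (adjusted p = 0.164), from 0.32 to 0.45 on the forward arrays and -0.09 to 0.01 on the dye-swapped arrays. The E2f3 probe, with 1 array at 0, read from -0.40 to 0.13.

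Among the pocket proteins, Rbl1 fell and the probes of Rb1 and Rbl2 did not pass. Rbl1, which encodes p107 and is an E2F target, read -0.43, -0.44 and 0.00 on the forward arrays and -1.03, -0.86 and -0.70 on the dye-swapped arrays. Each dye-swapped array was lower than each forward array, and the mean was -0.58 ± 0.20, 1.49-fold lower (adjusted p = 0.00378). Rb1 was above 0 on all 6 arrays, from 0.11 to 0.38, with a mean of 0.25 ± 0.09 that did not pass (adjusted p = 0.0644). Over 6 arrays it did, with the set as a random replicate block (adjusted p = 0.0415) and with no replicate block (adjusted p = 0.0183). The latter fit counts the arrays of a set as separate replicates. With zeros kept Rb1 did not pass (adjusted p = 0.0817). Rbl2, the p130 gene of resting cells, gave 0.20 ± 0.14 and 0.05 ± 0.11 (adjusted p = 0.153 and 0.704).

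The transcriptional and Cdk-activating group, whose kinases phosphorylate RNA polymerase II or the Cdks themselves, had a median of -0.05 over 15 probes. The highest was Ccnl2, a splicing-associated cyclin, at 0.28 ± 0.22 (adjusted p = 0.0826), and the lowest Ccnc, the cyclin of the Mediator kinase, at -0.19 ± 0.18 (adjusted p = 0.197). Cdk7, the Cdk-activating kinase, stood at -0.06 at both probes, but probe 4448 read -0.48, -0.84 and -1.06 on the forward arrays and 0.45, 1.01 and 0.59 on the dye-swapped arrays. Its partner Ccnh gave -0.10 ± 0.09 and 0.00 ± 0.12. The probes of Cdk9, Ccnt2 and Ccnk lay between -0.09 and 0.10. Ccnt1 gave -0.10 ± 0.16 at probe 9866, while its probe 6070 read -2.87 and -2.998 on 2 forward arrays and was listed at 0 on the other 4. Ccndbp1, which binds D-type cyclins and is no cyclin, stood at 0.14 ± 0.06 (adjusted p = 0.252).

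Probes of 1 gene share arrays and RNA, so they are not replicates of the treatment, but they can be compared. Of 23 member genes with more than 1 tested probe, 20 had means of 1 sign and 21 had 1 call at all probes. All probes were called in 1 direction for 8 genes, namely Ccna2, Ccnd2, Ccnf, Ccng1, Ccng2, Cdk1, Cdk4 and E2f6. The rest of the 21 were called at no probe. Such agreement was not counted over all genes of the platform, so these counts have no share beside them. The exceptions in call were Cdkn1a and Cdk14. Ccnh, Ccni and Cdkn2b differed in sign between probes with no probe called.

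The 16 probes without 6 values could not be tested. Those listed at 0 on all 6 arrays were the second probes of Ccnb2, Ccndbp1, Ccne2, Cdk2 and Cdk5. The second probes of Ccnd3 and Cdkn1c had a value on 1 array each, the forward array of set 2, of -2.02 and -2.09, and no other array bears on these. The second Ccnd1 probe read from -0.57 to 0.20 on 5 arrays. The second Cdk6 probe read -0.32 and -0.97 on 2 forward arrays but 0.23 and 0.22 on 2 dye-swapped ones. The only Cdk3 probe read 0.12 and 0.62 on forward and -0.36 and -0.83 on dye-swapped arrays, so that the sign differed with the orientation for both genes. The second probes of Ccna1 and Cdk18 and the third of Cdkn2b had values on 3 or 4 arrays, between -0.58 and 0.29.

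The lower members stood nearer to 0 in set 3. The median of the 15 lower member probes was -0.77, -0.83 and -0.45 on the forward arrays (sets 1, 2 and 3) and -0.81, -0.71 and -0.48 on the dye-swapped arrays. Over all 1556 probes called lower, the medians were -0.46, -0.50 and -0.46 on the forward arrays and -0.45, -0.42 and -0.41 on the dye-swapped arrays. The 11 higher member probes had medians between 0.57 and 0.78 on the 6 arrays, with 0.57 and 0.59 in set 3. The difference between sets was not tested. Set 3 held the arrays with the most values at 0, 17.8% on its forward and 12.8% on its dye-swapped array, against 7.97% to 9.64% on the others.

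The wider pathway was read from 68 symbols of cell cycle regulators and E2F or mitotic targets outside the member families, listed with earlier results of these data known. Of these, 49 were on the platform, and 61 probes of 48 genes had 6 values. Of the 61, 39 fell and 3 rose, 63.9% and 4.92% beside 12.2% and 14.8% of all probes, with a median of -0.47 beside -0.01. With zeros kept as values, 13 of the list were called lower and 4 higher, beside 504 and 903 of all 16281 probes. The lowest were the proliferation antigen Mki67 at -1.01 ± 0.23 (adjusted p = 0.00026), Wee1, the kinase that inhibits Cdk1, at -0.998 ± 0.17 (adjusted p = 0.000158), and the spindle checkpoint kinase Bub1b at -0.92 ± 0.33 (adjusted p = 0.00106). Skp2, which marks p27 for degradation, fell at both tested probes, at -0.85 ± 0.05 and -0.75 ± 0.06. The mitotic transcription factors Foxm1 and Mybl2 fell by 0.86 and 0.77, and Tfdp1, the dimer partner of E2F, by 0.51 (adjusted p = 0.000556, 0.000332 and 0.00532). The 3 that rose were the growth regulator Myc at 2.47 ± 0.03 (5.53-fold, adjusted p = 4.26e-07), Cdk2ap2, which encodes a Cdk2-associated protein, at 1.28 ± 0.20 (adjusted p = 4.55e-05), and the p53 target Mdm2, whose product degrades p53, at 1.25 ± 0.12 (adjusted p = 2.78e-05). Skp2, Foxm1, Mybl2 and Tfdp1 were named after their values were seen.

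**Figure D4:**
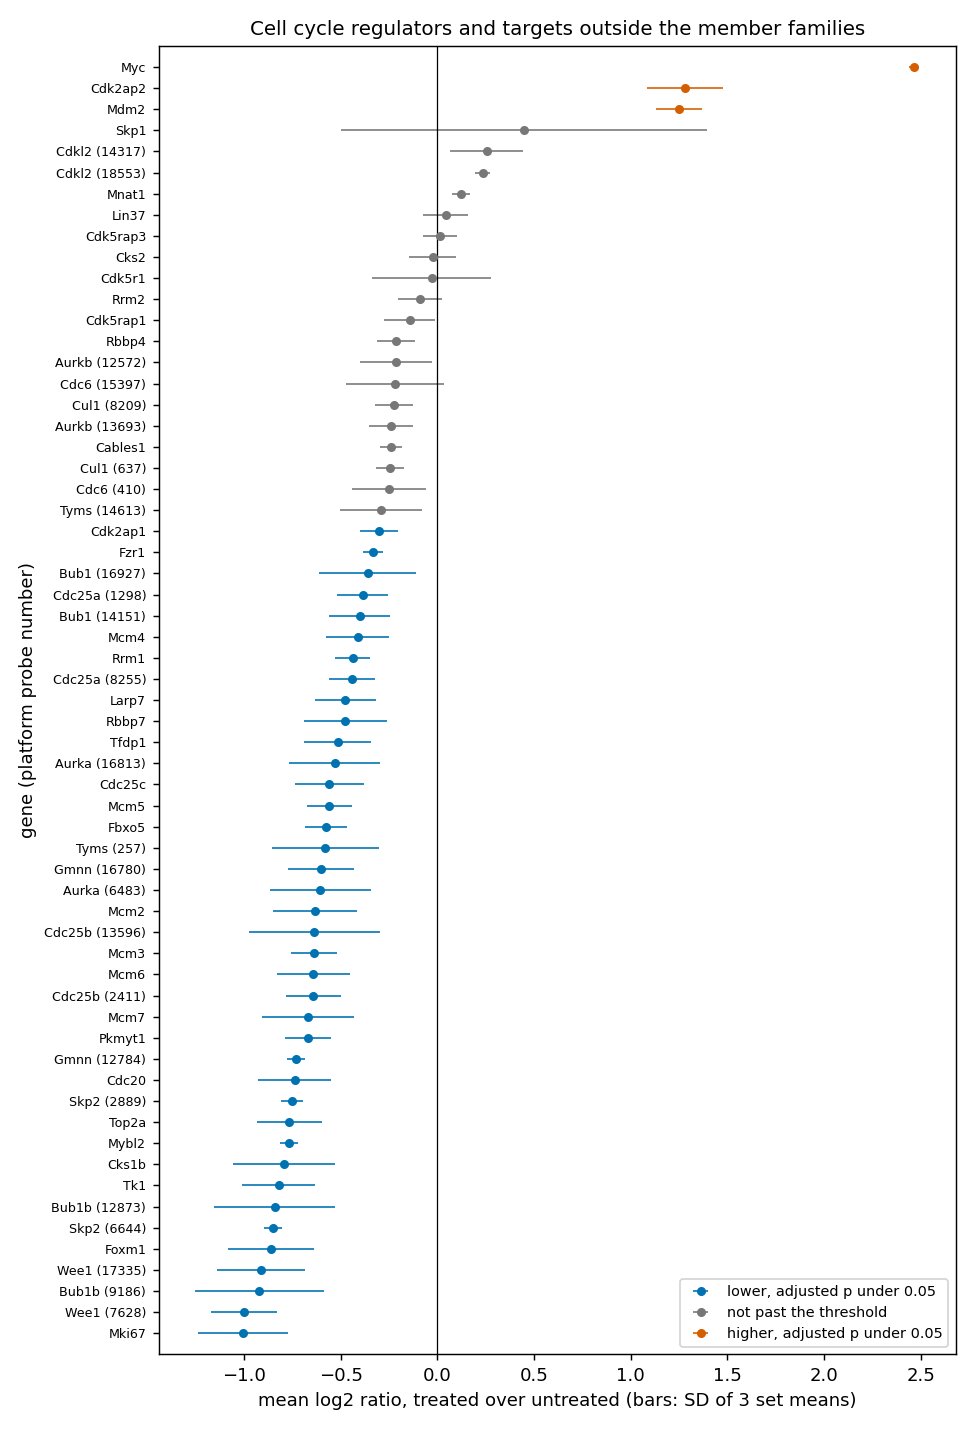
Mean log2 ratio of treated over untreated cells (horizontal axis, bars for the SD of 3 set means) for the 61 tested probes of the wider pathway list (vertical axis, ordered by mean), coloured by limma call. Myc stands at 2.47, apart from the rest, and the 39 probes called lower run down to -1.01 for Mki67.

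Leaving zeros in as values ended many of these calls. With all 16281 probes tested and zeros kept, limma called 7 member probes higher and 4 lower, where 5.55% and 3.1% of all probes were called. None of the 26 called member probes has a value at 0, so their ratios were the same there, and 11 passed. That fit took in 1011 probes at 0 on all 6 arrays, which have no spread. Its lowest limma adjusted p over all probes was 0.0222, beside 7.22e-08 in the main fit. Unadjusted, 5024 probes had p under 0.05 in it, beside 4874 in the main fit. What ended the calls was not tested. The call held under all 12 alternatives for 9 probes, those of Ccna2, Ccng1 and Ccng2, Cdkn1a probe 4387 and Cdk1 probe 12673. For 7 probes, those of Ccnb2, Ccnf, Cdkn3 and Rbl1, Cdk1 probe 2855 and Ccnd2 probe 15307, it was lost with zeros kept and under no other. Without set 2, 9 member probes were called lower instead of 15, and 833 instead of 1556 over all 12724 probes.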

How the data were processed

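The authors deposited 1 log ratio of the dyes per probe and array, read here as log2 values. The dyes are those of the labels. The ratio's base and direction, the background correction, the dye normalization and the scanner are not given in the sources; the direction was taken as Cy5 over Cy3. No 2 arrays held identical values, and 0 per-sample columns were left unmapped. Depth does not apply, and the number of arrays limits the precision.

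Of 16281 probes, 13738 had 1 symbol in the platform annotation, 52 several and 2491 none, and 0 of the 52 held a member symbol. Dye-swapped arrays were multiplied by -1, exact zeros were set to missing, and a set's forward and dye-swapped arrays were averaged, which cancels dye effects. Means of the 3 sets were compared with 0 in limma 3.58.1 in R 4.3.3 (lmFit, eBayes). On simulated set means with the variances that eBayes estimated here, 45 of 100 probes changed by 0.5 (log2) and 100 of 100 changed by 1 were recovered, with 11 false calls among 12724 probes. Only these probes were changed in the simulation, with values drawn independently, whereas 27.1% of all probes were called in the data. The Benjamini-Hochberg cut-off depends on that share, so these rates are not those of the data. Alternatives are given in the closing section.

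The members, roles and the wider list were chosen with earlier results of these data known. Named are all member genes with a called probe, the highest and lowest of each role, genes whose probes disagree, probes with opposite signs in the orientations, and the 3 highest and 3 lowest called probes of the wider list. Other members were added to account for each role.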

Additional observations from a re-analysis of the deposited data

Results flagged for a closer look

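In 5 of 72 member probes (6.94%), and in 7.21% of all tested probes, all 3 arrays of one dye orientation lay on one side of 0 and all 3 of the other orientation on the other side, after turning to treated over untreated. With treated RNA in Cy5 and in Cy3, the means were -0.79 and 0.68 for Cdk7 probe 4448, -0.76 and 0.50 for Cdkn2b probe 10623, -0.65 and 0.43 for Cdk16 probe 16929, -0.14 and 0.24 for Rbl2 probe 13191, and 0.31 and -0.42 for Cdk13 probe 13236. The difference between the orientations was not tested, and none of these 5 probes passed the test of treatment (limma, adjusted p = 0.395 to 0.77). Their small means are averages of values of opposite sign. Groups of 3 arrays were too small to test for an outlying array.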

How the results depend on the processing

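Of 3443 probes called over the whole array, 1887 were higher and 1556 lower. With zeros kept 1407 were called (903 higher, 504 lower), with 7 members higher and 4 lower and 13 probes of the wider list lower. At adjusted p under 0.01, 1884 were called (1199 and 685). Leaving out a set gave 2191 to 2655 probes (1358 to 1577 higher, 833 to 1137 lower), with 8 to 10 members higher and 9 to 13 lower, and 29 to 39 of the wider list lower. With no replicate block (6 arrays and a dye term) 18 members were called higher and 15 lower, beside 2242 and 2051 of all 12724 probes. That fit counts the arrays of a set as separate replicates. When at least 2 arrays of each orientation sufficed, also with no replicate block, 17 members were higher and 15 lower, beside 2246 and 1987 of 14629. With the set as a random replicate block (consensus correlation 0.349) 14 were higher and 15 lower, beside 1885 and 1520 of 12724. Same-numbered arrays deviated together at r = 0.528, 0.0773 and 0.167, and the Cy3 array of set 2 correlated better with another number (0.133), so the numbers are not shown to pair extracts. Averaging the probes of a gene gave 6 member genes higher and 11 lower of 47, beside 1310 and 1089 of all 9180. It lost Ccnd3, whose second probe had a value on 1 array. It added Ccnt1 (-0.58, adjusted p = 0.0405), whose second probe had values on 2 arrays. Centring arrays on their median gave 12 members higher and 14 lower (1928 and 1468 of all), scaling arrays to 1 spread 11 and 14 (1776 and 1440), and robust eBayes 12 and 15 (1878 and 1573). The causes of the other changes were not tested. Signs turned for uncalled probes near 0. Per gene these were Cdkn2b (0.0188), Ccni (-0.0203) and Ccnh (-0.0494). With a set left out, values ran from -0.0618 to 0.0858 for Ccni probe 13622, -0.0731 to 0.0186 for Ccni probe 6009, -0.0664 to 0.0458 for Ccnh probe 629, -0.20 to 0.0374 for Cdk13, -0.26 to 0.0052 for Cdkn2b probe 10623, -0.0072 to 0.10 for Rbl2 probe 13191 and -0.13 to 0.0330 for Cdk7 probe 4448. No called member probe turned sign under the 12 alternatives, though zeros kept, the 6-array fits, robust eBayes and the stricter threshold leave its ratio as it is. Signal over background is unknown, so what dim probes could show is not known.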
